A study of Mus musculus with 22 samples.

Results

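Divergent promoters are pairs of genes whose transcription start sites (TSSs) lie close together on opposite strands, so that both genes are read outward from 1 shared stretch of DNA. The pairs described here have a minus-strand TSS and a plus-strand TSS on the same chromosome, with the plus-strand TSS 0 to 1000 bp past the minus-strand one. The rule used positions and strands and no measured value. It found 1142 pairs, which hold 2261 of the 24467 promoter windows of the study (9.24%), because 21 genes have 2 partners. They are set against 19097 lone windows, which overlap no other window. The remaining 3109 windows overlap a neighbour in another arrangement.

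The signal was measured by CUT&RUN, in which a nuclease is tethered to an antibody inside permeable nuclei and cuts out the DNA next to the antibody's target. The neural progenitor cells (NPC) came from embryonic stem cells given bFGF at 10 ng/mL for 72 h, then the Hedgehog pathway agonist SAG at 500 nM for 48 h. The embryonic stem cells (ESC) were kept in N2B27 medium with LIF and the inhibitors CHIR99021 and PD0325901 (2i/LIF). Both are C57BL/6 cells whose genotype label is "untagged, Tir1" and whose treatment label is "untreated". SUZ12, JARID2, MTF2, H3K27me3 and H3K4me3 had 2 libraries each per cell type, numbered as replicates, and the IgG control had 1 per cell type.

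A promoter that fires in both directions usually lies in a CpG island, lacks a TATA box and is shared by housekeeping genes such as those of DNA repair, mitochondria and histones. A second kind joins a coding gene with a noncoding RNA, and many regulators of development have such an antisense partner. H3K4me3 is laid down at promoters that are active or poised for activity. SUZ12 is a core subunit of Polycomb repressive complex PRC2, which trimethylates lysine 27 of histone H3 to give H3K27me3, and JARID2 and MTF2 are accessory subunits that belong to different forms of PRC2. Promoters of developmental regulators in embryonic stem cells are known for carrying H3K27me3 and H3K4me3 together.

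The distance between the TSSs of a pair had a median of 173 bp (quartiles 90 and 328 bp) and reached from 0 bp, at Capza1/St7l, to 999 bp. By distance there were 319 pairs up to 100 bp apart, 319 above 100 and up to 200 bp, 172 up to 300 bp, 175 up to 500 bp and 157 up to 1000 bp. Coding genes made up both sides of 759 pairs, a coding and a noncoding gene formed 351, and 32 were of noncoding genes. Each value below is a count of reads over the 5000 bp around 1 TSS, so the windows of a pair share at least 80.02% of their bases (median 96.54%), and their values are nearly the same measurement. In 103 pairs another window also overlaps. Counts per window are printed as CPM, counts per 1e6 counts of the library over all windows.

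The stretches between the TSSs of 9 pairs show the kinds of promoter that the results turn on: pairs with the highest SUZ12 level or the largest SUZ12 change (Lhx1, Pcdh7, Pcdh10, Irf2), a forebrain regulator (Emx2), a pair that exchanged its marks (Tbc1d16/Ccdc40) and housekeeping pairs of histones, chaperones and DNA repair. They are RefSeq sequences of GRCm38.p6, plus strand, both TSSs included, and capitals mark the motifs that a search of both strands found. The search was for the TATA box (TATAAA), the CCAAT box, the ETS core with the letters CGGAAG, the GC box with the letters GGGCGG, the NRF1 core CGCATGCG, the YY1 core AAGATGGC, the ZBTB33 core TCTCGCGA and the CRE, TGACGTCA.
Lhx1/Lhx1os, chr11:84525534-84525660: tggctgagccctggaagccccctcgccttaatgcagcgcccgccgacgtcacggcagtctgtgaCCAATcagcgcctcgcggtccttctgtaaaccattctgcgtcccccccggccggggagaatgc
4932441J04Rik/Pcdh7, chr5:57717919-57718081: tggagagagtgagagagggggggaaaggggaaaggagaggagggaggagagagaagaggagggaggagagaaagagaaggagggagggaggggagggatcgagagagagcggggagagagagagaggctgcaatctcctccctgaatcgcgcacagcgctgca
2610316D01Rik/Pcdh10, chr3:45378260-45378398: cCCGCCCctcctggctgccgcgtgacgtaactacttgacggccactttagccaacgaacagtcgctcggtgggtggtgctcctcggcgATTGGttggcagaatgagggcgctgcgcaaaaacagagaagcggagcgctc
Emx2os/Emx2, chr19:59458635-59458690: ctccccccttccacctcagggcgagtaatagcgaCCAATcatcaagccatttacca
Gm16675/Irf2, chr8:46739515-46739745: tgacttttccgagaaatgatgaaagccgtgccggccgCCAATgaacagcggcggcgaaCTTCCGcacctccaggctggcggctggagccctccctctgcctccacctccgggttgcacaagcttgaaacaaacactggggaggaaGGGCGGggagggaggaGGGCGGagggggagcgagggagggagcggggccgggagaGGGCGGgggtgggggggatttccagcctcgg
Tbc1d16/Ccdc40, chr11:119228499-119228572: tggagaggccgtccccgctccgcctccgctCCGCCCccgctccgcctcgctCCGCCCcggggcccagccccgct
Hist1h2bl/Hist1h2ai, chr13:21716143-21716412: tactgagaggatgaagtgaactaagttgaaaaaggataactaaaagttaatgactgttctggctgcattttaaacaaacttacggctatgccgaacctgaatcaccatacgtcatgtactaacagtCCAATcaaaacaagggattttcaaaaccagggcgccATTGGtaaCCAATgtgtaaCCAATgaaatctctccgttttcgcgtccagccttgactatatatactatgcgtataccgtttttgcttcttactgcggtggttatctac
Hspd1/Hspe1, chr1:55087932-55088148: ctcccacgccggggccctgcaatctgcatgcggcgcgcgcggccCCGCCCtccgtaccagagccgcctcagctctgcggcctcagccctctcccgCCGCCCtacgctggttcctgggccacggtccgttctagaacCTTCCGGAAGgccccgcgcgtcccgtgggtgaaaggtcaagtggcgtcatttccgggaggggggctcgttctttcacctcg
Brca1/Nbr1, chr11:101551955-101552107: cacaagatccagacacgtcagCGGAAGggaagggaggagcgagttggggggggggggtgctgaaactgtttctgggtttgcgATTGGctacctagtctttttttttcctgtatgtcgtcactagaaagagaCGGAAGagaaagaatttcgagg

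The stretch of Hist1h2bl/Hist1h2ai held 4 CCAAT boxes, in both orientations, and was the poorest in GC of the 9 (40.0%), while that of Tbc1d16/Ccdc40 held 2 GC boxes and was 83.8% GC. At Hspd1/Hspe1 there were 2 ETS cores that overlap each other, 2 GC boxes and 25 CpG. Brca1/Nbr1 held 2 ETS cores and 1 CCAAT box. Gm16675/Irf2 held 3 GC boxes, 1 CCAAT box and 1 ETS core. Lhx1/Lhx1os and Emx2os/Emx2 each held 1 CCAAT box, 2610316D01Rik/Pcdh10 held 1 CCAAT box and 1 GC box, and none of these letters was in the stretch of 4932441J04Rik/Pcdh7. A CCAAT box occurs by the same search in 32.1% of the 32851 promoters of the RefSeq table over the length of the Gm16675/Irf2 stretch. It is in 24.7% over that of Brca1/Nbr1, in 23.3% over that of Pcdh10, in 22% over that of Lhx1 and in 9.92% over that of Emx2. The Hist1h2bl/Hist1h2ai stretch of 270 bp is longer than the part searched, the 250 bases before a gene start and the start itself. Over that part 33.9% of promoters held a CCAAT box. An ETS core is in 13.2% over the length of the Irf2 stretch, 12.8% over that of Hspd1/Hspe1 and 10.6% over that of Brca1/Nbr1. A GC box is in 32.2%, 31.7%, 28.0% and 21.2% over the lengths at Irf2, Hspd1/Hspe1, Pcdh10 and Tbc1d16/Ccdc40. A match is a description of the letters and not a mapped binding site.

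Over the 647 pairs whose whole stretch could be read, it was 12 to 282 bp long (median 116 bp) with a median of 65% GC and 10 CpG. A promoter of 300 bases (250 before and 50 after the gene start) was matched for 1823 of the 2261 divergent windows (80.6%). Its median GC content was 63.3%, against 52.7% for all promoters of the table, and the median observed over expected CpG ratio was 0.860, against 0.384. The ETS core was in 45.1% of these divergent promoters and in 16.9% of all promoters. The GC box was in 71.4% and 35.7%, the YY1 core in 7.41% and 2.75%, and the ZBTB33 core in 4.44% and 0.995%. The TATA box was the motif that was less frequent, in 4.44% of divergent and 13.6% of all promoters, and the CCAAT box stood at 42.6% and 37.4%. Lone windows were matched in 73.2% of cases, under the 80% set for such a check, so the same comparison with lone windows is void. All windows of the study together were matched in 72.3%, under 80% too, and lay nearer to the divergent values than the whole table did. Their median GC content was 56.3% and their CpG ratio 0.573. The ETS core was in 21.6% of their promoters, the GC box in 46.5% and the TATA box in 13.2%. Lone windows with H3K4me3 above IgG in ESC were matched in 78.1%, also under 80%. Their median GC content was 62.3% and their CpG ratio 0.807, against 63.7% and 0.884 for such divergent windows. The GC box was in 71.3% and 73.0%, the TATA box in 6.43% and 4.53%, and the ETS core in 34.1% and 49.3%. The 250 bases before a gene start often reach past the partner's start, so both members can count the same letters.

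Libraries held 298458 counts (the ESC library of IgG) up to 8425292 (an NPC library of H3K4me3), and those of SUZ12, JARID2 and MTF2 339591 to 857691. The cells carried their labels: H3K4me3 rose at 8 of 8 NPC markers and fell at 7 of 8 ESC markers. It also rose at 4 of 5 neuronal markers and at 1 of 4 mesoderm and 1 of 4 endoderm markers, and their part in the results was not tested. Summed H3K4me3 over the neuronal list was 187 and 208 CPM in NPC, against 114 and 116 CPM in ESC. The 2 NPC libraries of SUZ12, and likewise those of JARID2, agree within sampling noise (chi-square test over windows, 1.01 per degree of freedom for each, p = 0.152 and 0.1579), so they may not hold independent spread. Summed into 1 NPC library, they gave 65 rises and 281 falls of SUZ12 at divergent windows, and 3 and 16 of JARID2. By the same measure the 2 NPC libraries of H3K27me3 differed most, with 6.702 per degree of freedom, and the H3K27me3 changes below rest on them. The NPC values were 2.077 for H3K4me3 and 1.7 for MTF2. In ESC the values ran from 1.02 (JARID2) to 1.541 (MTF2). The fit over IgG assumes that the lone IgG library of a cell type varies like the other groups.

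H3K4me3 was the mark of divergent promoters in both cell types. Of their windows, 1909 (84.4%) were above IgG in NPC and 1789 (79.1%) in ESC, against 31.4% and 28.5% of lone windows, by edgeR's quasi-likelihood test at an adjusted p below 0.05 and a log2 fold of at least 1. Over all windows tested, 38.9% passed in NPC and 36% in ESC. The median divergent window had 94.4 and 96.4 CPM in NPC and 89.2 and 89.5 CPM in ESC. The median lone window had 13.5 and 12.1 CPM in NPC and 17.2 and 15.7 CPM in ESC, so the libraries of both kinds of window lie far apart. On the log2 scale of the ratio to IgG, the divergent median exceeded the lone median by 2.80 ± 0.15 in NPC and 2.46 ± 0.07 in ESC (SD, n = 2 libraries). The gap was smaller among windows that carried the mark. Among windows called above IgG in NPC the divergent median was 101.1 and 104 CPM and the lone median 73.2 and 74.4 CPM, and in ESC these were 98.6 and 100.0 CPM at divergent windows and 73.4 and 74.0 CPM at lone ones. A window of a divergent pair spans both promoters, and what each adds to its count was not measured.

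**Figure D1:**
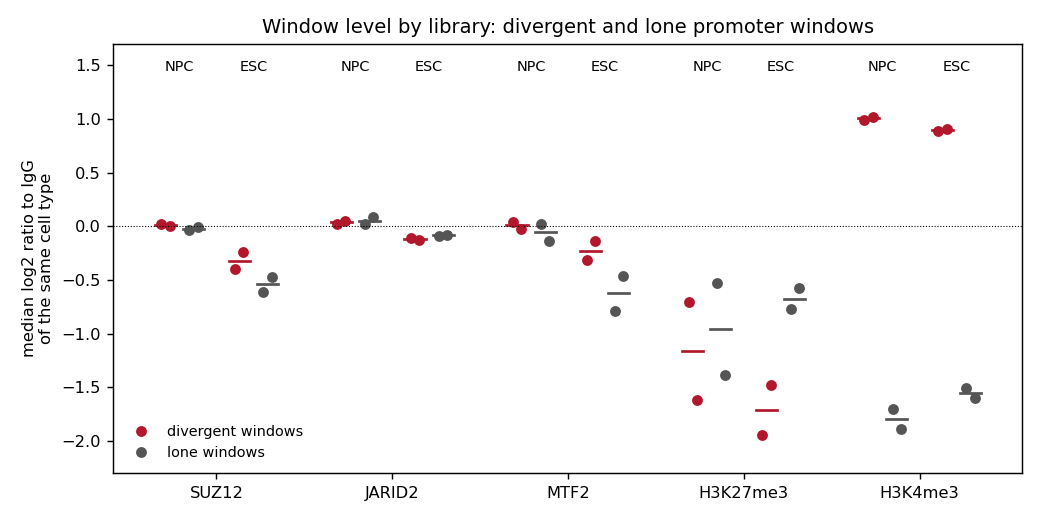
Median level of each library over divergent (red) and lone (grey) promoter windows, as the log2 ratio to the IgG library of the same cell type; points are the 2 libraries and bars their mean, with NPC left of ESC. The H3K4me3 median lies above IgG at divergent windows and below it at lone windows, and H3K27me3 at divergent windows is lower in ESC than at lone windows.

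H3K27me3 and the PRC2 subunits gave another picture. H3K27me3 was above IgG at 185 divergent windows (8.18%) in NPC and 234 (10.3%) in ESC, against 15.1% and 23.6% of lone windows. The same calls held 15.1% of all windows tested in NPC and 22.5% in ESC. SUZ12 was above IgG at 129 divergent windows in ESC (5.71%), close to the 5.30% of lone windows and the 5.66% of all windows tested. MTF2 was above IgG at 222 divergent windows in ESC (9.82%), against 8.54% of lone windows and 8.94% of all tested. Without ESC replicate 1 of the antibody, the SUZ12 calls numbered 50 and the MTF2 calls 64.

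None of the divergent windows passed for SUZ12 or MTF2 in NPC, or for JARID2 in either cell type, by edgeR, and neither did any other window (0% of all tested in each of these 4 comparisons). At an unadjusted p below 0.05, divergent windows higher than IgG numbered 78 for SUZ12 and 89 for MTF2 in NPC, and 19 in NPC and 44 in ESC for JARID2, of 2250 tested. Over all 23836 windows tested the same counts were 626, 813, 286 and 565. With scaling by library totals, SUZ12 in NPC gave 26 windows, MTF2 in NPC 30 and JARID2 in ESC 4. Windows of high level also went uncalled against the 1 IgG library. Lhx1 had 303 and 377 CPM of SUZ12 in NPC, while the median IgG level of divergent windows there was 44.9 CPM. A missing call is thus not absence of the protein.

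**Figure D2:**
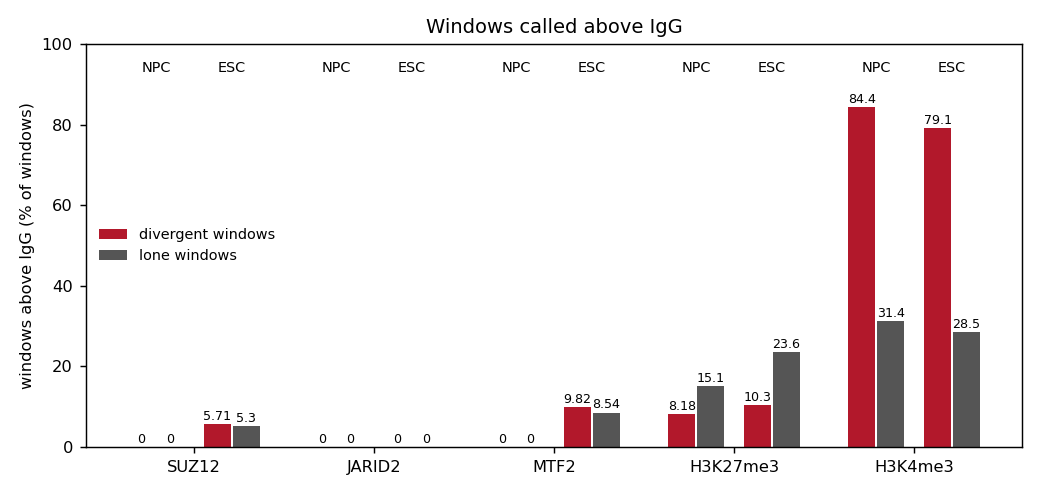
Percent of divergent (red) and lone (grey) windows above IgG for each antibody, NPC left of ESC, at an adjusted p below 0.05 and a log2 fold of at least 1. The H3K4me3 bars are 84.4% and 79.1% at divergent windows, against 31.4% and 28.5% at lone windows, while H3K27me3 bars are shorter at divergent windows.

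Taking both windows of a pair together, 923 pairs (80.8%) had H3K4me3 alone in NPC and 876 (76.7%) in ESC. Both marks were above IgG in both windows at 37 pairs in NPC and 19 in ESC. These numbers were 9 and 1 with library totals as the scale, and 7 and 1 where a log2 ratio to IgG of 2 or more was required. By window, both marks stood at 3.41% of divergent windows in NPC and 2.12% in ESC, near the 3.94% and 2.24% of all windows. H3K27me3 alone marked 55 pairs in NPC and 95 in ESC, and 127 and 152 pairs had neither mark called in both windows. By kind of partner, H3K4me3 alone was the state of 88.8% of coding/coding pairs in NPC, of 66.7% of pairs of a coding and a noncoding gene, and of 46.9% of noncoding/noncoding pairs. In ESC these shares were 84.1%, 62.4% and 59.4%. Of the 32 noncoding pairs, 5 come from 1 locus, the miR-290 cluster.

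Most pairs had the same state in both cell types. Of the 876 pairs with H3K4me3 alone in ESC, 836 (95.4%) were in that state in NPC too, against 80.2% of the lone windows that started there. In NPC 16 of these pairs had both marks, 7 had H3K27me3 alone and 17 had neither. The 95 pairs with H3K27me3 alone in ESC spread wider: 41 were in the same state in NPC, 14 had both marks, 10 had H3K4me3 alone and 30 had neither. With neither mark in ESC, 67 of 152 pairs had H3K4me3 alone in NPC (44.1%), against 9.37% of such lone windows. These starting sets are not alike. A pair with a mark called in only 1 window counts as neither, while a lone window has a single call. Lone windows also include 1094 of olfactory receptors, none with H3K4me3 above IgG. Values near the call threshold can move a pair between states without a change that passes the test.

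**Figure D3:**
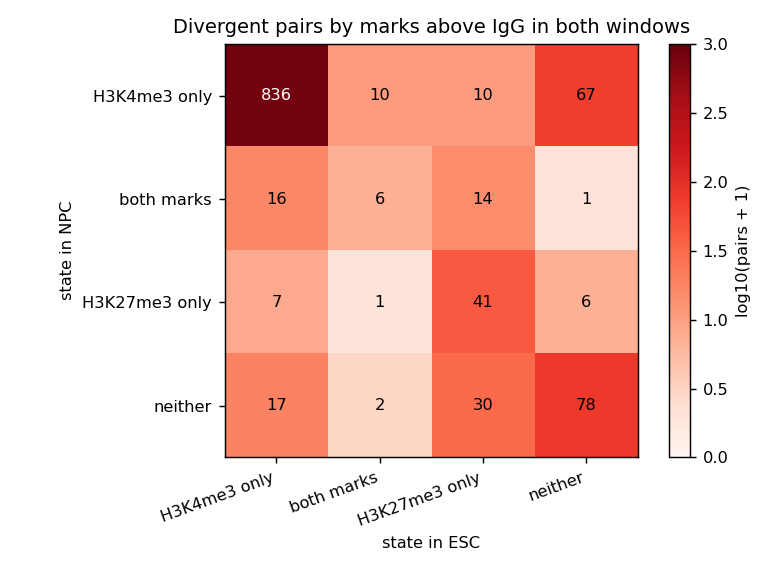
Number of divergent pairs in each combination of state in NPC (rows) and in ESC (columns), by which marks were above IgG in both windows; colour is log10 of the number of pairs plus 1. The corner cell of H3K4me3 alone in both cell types holds 836 of the 1142 pairs.

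Pairs with both marks above IgG in both cell types numbered 6. Among them were Man1a/Gm16998, Atp7b/Alg11 and Hsdl1/Dnaaf1, chosen as examples after their values were seen. The 7 pairs with H3K4me3 alone in ESC and H3K27me3 alone in NPC were looked at after their values were seen. Of these, 5 come from a single locus, the microRNA cluster miR-290 on chromosome 7, which is known for its expression in embryonic stem cells, and the others are Mir5135/Plekhg3 and Nup62cl/Pih1h3b.

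The miR-290 locus had the largest swing of H3K4me3 among these 7 pairs. Below are mature microRNAs of its hairpins in divergent pairs, with the seed (bases 2 to 8) in capitals (RefSeq, GRCm38.p6, 5′ to 3′). Of miR-292a only the 5p arm is listed.
miR-291a-5p: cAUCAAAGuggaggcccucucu
miR-291b-5p: gAUCAAAGuggaggcccucucc
miR-291a-3p: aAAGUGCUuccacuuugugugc
miR-291b-3p: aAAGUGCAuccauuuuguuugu
miR-292a-5p: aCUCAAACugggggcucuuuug
miR-290b-3p: aAGUGCCCccauaguuugagua
miR-290b-5p: gCUUAAAAcuaggcggcacuuu
miR-292b-3p: aAGAGCCCccaguuugaguau
miR-292b-5p: aCUCAAAAccuggcggcacuuuu
miR-291a-5p and miR-291b-5p share the seed AUCAAAG. The minus-strand members miR-290b and miR-292b lie antisense within the cluster. Apart from that of the noncoding gene D7Ertd143e, a partner of Mir290b, the TSSs in the table are starts of hairpins. These pairs are 1 region counted 5 times.

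The mean of both windows of Mir290b/Mir291a had 11.6 and 15.8 CPM of H3K4me3 in NPC, against 224 and 243 CPM in ESC. H3K27me3 stood at 82.0 and 72.3 CPM in NPC, against 1.04 and 9.26 CPM in ESC. At the Mir291a window the log2 change of H3K4me3 was -4.03 (edgeR, adjusted p = 5.57e-295), and H3K27me3 rose by 4.29 (adjusted p = 7.86e-18). The 1.04 CPM of H3K27me3 in ESC lies under the 3.11 CPM that 3 counts make in that library, so the size of this rise is uncertain. Mir5135/Plekhg3 had 221 and 306 CPM of H3K27me3 in NPC, against 16.6 and 20.8 CPM in ESC, with a log2 rise of 4.04 at Plekhg3 (adjusted p = 7.10e-06), while H3K4me3 there fell (adjusted p = 4.86e-59). At Nup62cl/Pih1h3b H3K27me3 rose by 2.06 at Nup62cl (adjusted p = 9.81e-08) and H3K4me3 fell by 1.00 (adjusted p = 2.89e-08). The replicates of the cell types did not overlap at any of these 3.

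The 10 pairs that had H3K27me3 alone in ESC and H3K4me3 alone in NPC moved the other way. At Gm13986/Thbs1, whose coding gene makes the matrix protein thrombospondin, the Thbs1 window had 58.5 and 60.2 CPM of H3K4me3 in NPC, against 16.1 and 13.8 CPM in ESC, and 34.4 and 24.2 CPM of H3K27me3 in NPC, against 117 and 114 CPM in ESC. H3K4me3 rose by 1.95 ± 0.13 (SE, adjusted p = 1.25e-52) and H3K27me3 fell by 1.81 (adjusted p = 0.000134). Tbc1d16/Ccdc40, a regulator of Rab GTPases beside a gene needed for motile cilia, showed the same exchange. Its Tbc1d16 window had 96.5 and 89.4 CPM of H3K4me3 in NPC, against 27.5 and 24.0 CPM in ESC (log2 1.79 ± 0.10, adjusted p = 1.67e-67), while H3K27me3 was 75.4 and 55.4 CPM in NPC, against 212 and 193 CPM in ESC (log2 -1.454, adjusted p = 0.0402). Tet3, an enzyme that oxidises methylated cytosine, was in this group through its pair with B230319C09Rik.

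Between NPC and ESC, H3K4me3 rose at 785 and fell at 464 of the 2232 divergent windows tested (35.2% and 20.8%). Over all windows tested, 26.7% rose and 29.2% fell, and at lone windows 25.9% and 29.6%. The median log2 change was 0.07 at divergent and -0.05 at lone windows. The split depended on scaling: with factors from background windows, which move the median of all windows by over 0.1 to 0.27, there were 306 rises and 54 falls, and with factors from lone windows 666 and 245. With no filter there were 536 and 533. The difference of the divergent and lone medians ran over all alternatives from -0.01 to 0.22. Without ESC replicate 1 there were 768 calls and without ESC replicate 2 there were 674.

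H3K27me3 rose at 889 and fell at 143 of 2021 divergent windows tested (44.0% and 7.08%), whereas 22.9% of all windows tested rose and 23.5% fell. The median log2 change was 0.95 at divergent windows, -0.07 at lone windows and 0.12 over all windows, and the divergent median was 0.62 to 1.11 above the lone median in every alternative run. This was a change at low levels. Of the 889 windows that rose, 845 (95.1%) were above IgG in neither cell type, against 2610 of the 3197 lone windows that rose (81.6%), and 44 were above IgG in NPC. The median divergent window had 26.6 and 14.01 CPM in NPC, against 9.32 and 12.4 CPM in ESC, that is 24 and 22 counts against 9 and 8. The lone median was 26.6 and 14.7 CPM in NPC, against 21.7 and 24.7 CPM in ESC.

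Beside this stand the shares of a library's counts that fell in divergent windows. For H3K27me3 they were 8.43% and 7.44% in NPC, against 5.50% and 5.94% in ESC, for IgG 10.3% in NPC, against 9.69% in ESC, and the windows themselves are 9.24% of the table. The H3K27me3 libraries of NPC thus lay nearer to the IgG share than those of ESC, and the part of this background in the rise was not tested. The count of calls was 303 with scaling by library totals (161 rises and 142 falls), 148 with DESeq2 (80 and 68) and 278 without ESC replicate 1. A scaling from background windows moved the median of all windows to -0.14, and one from lone windows to 0.27.

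The same direction was seen when windows with H3K4me3 in both cell types were set side by side. H3K27me3 rose at 816 of 1533 such divergent windows (53.2%) and at 1753 of 4032 such lone windows (43.5%), with median log2 changes of 1.12 and 0.91. H3K4me3 itself rose at 31.9% and fell at 20.6% of those divergent windows, and rose at 35.04% and fell at 25.8% of those lone windows, with a median of 0.06 in both. Among windows that carried H3K4me3 in both cell types, its rises were thus no more frequent at divergent than at lone windows.

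SUZ12 rose at 80 and fell at 287 of 2206 divergent windows tested (3.63% and 13.0%), near the 2.97% and 13.1% of all windows tested. MTF2 rose at 34 and fell at 168 of 2210 (1.54% and 7.60%), against 3.26% and 9.04% of all tested. JARID2 rose at 3 and fell at 15 of 2185, against 0.0792% and 0.76% of all tested. Among the SUZ12 falls, 120 of the 287 windows had SUZ12 above IgG in ESC. All 80 rises of SUZ12, all 34 of MTF2 and the 3 rises and 15 falls of JARID2 were at windows above IgG in neither cell type. No window of the study was above IgG for these antibodies in NPC. DESeq2 called 2 rises and 168 falls of SUZ12, 0 and 89 of MTF2 and 0 and 10 of JARID2. With library totals as the scale, which moves the median of all windows to 0.34 for SUZ12 and 0.38 for MTF2, SUZ12 had 274 rises and 200 falls and MTF2 176 and 113. At a minimum count of 30, which leaves 418 and 446 divergent windows, there were 122 rises and 49 falls of SUZ12 and 106 and 24 of MTF2. Without NPC replicate 1 SUZ12 had 233 calls and without NPC replicate 2 it had 228. For MTF2, 2 calls were left without NPC replicate 1 and 18 without ESC replicate 1, and for JARID2 6 were left without ESC replicate 2.

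No pair had its windows called in opposite directions for any of the 5 antibodies, and the windows of a pair share most of their bases. Both windows rose for H3K4me3 at 391 pairs and both fell at 235. Over all 1142 pairs, both windows rose for H3K27me3 at 427 and fell at 70, and both rose for SUZ12 at 31 and fell at 140. Among the 391, SUZ12 fell in both windows at 77 and rose at 1, and H3K27me3 rose at 87 and fell at 39. Among the 235 where H3K4me3 fell, H3K27me3 rose in both windows at 124 and fell at 4, and SUZ12 rose at 16 and fell at 16. All of these comparisons share cell cultures of the same kind and the counts are descriptions.

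**Figure D4:**
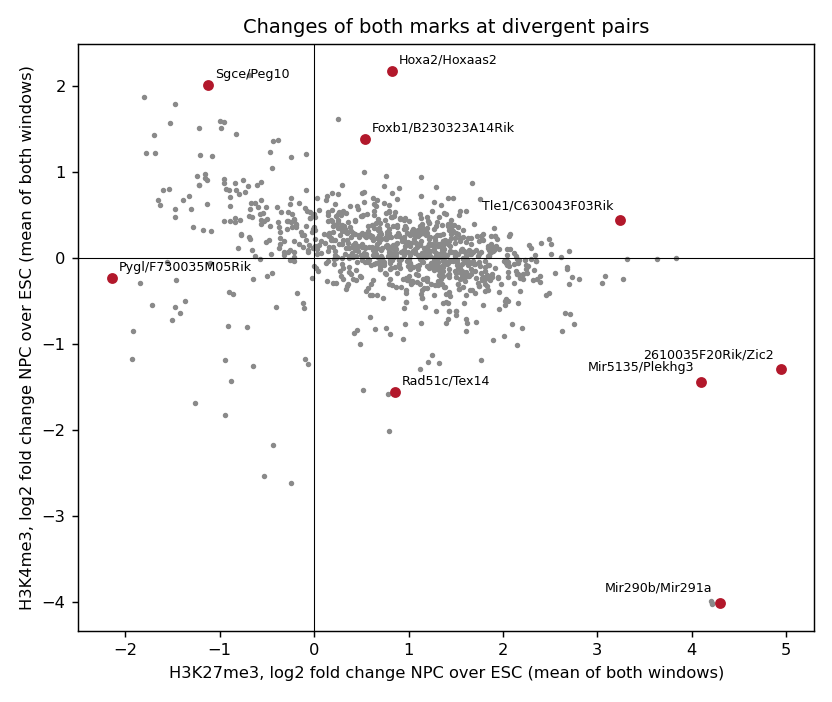
Each point is 1 divergent pair, with the log2 fold change NPC over ESC of H3K27me3 on the horizontal and of H3K4me3 on the vertical axis, both averaged over its windows; red points are pairs named in the text. The miR-290 pair lies near -4 for H3K4me3 and above 4 for H3K27me3, and most pairs lie right of 0 and near 0 on the vertical axis.

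SUZ12 was above IgG in both windows of 59 pairs in ESC, 22 of the 759 coding/coding pairs (2.90%), 37 of the 351 with 1 noncoding partner (10.5%) and none of the 32 noncoding pairs. MTF2 was above IgG in both windows of 104 pairs. The 5 pairs with the highest SUZ12 ratio to IgG in ESC were Lhx1/Lhx1os, 4932441J04Rik/Pcdh7, 2610027K06Rik/Tbx2, 2610316D01Rik/Pcdh10 and Lhx8/AI606473. Lhx1, Lhx8 and Tbx2 are transcription factors of development, and Pcdh7 and Pcdh10 are protocadherins, adhesion proteins of neurons. All 5 have a partner that is a noncoding or unnamed transcript.

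Lhx1, whose pair is printed above, had 303 and 377 CPM of SUZ12 in NPC, against 722 and 646 CPM in ESC, a log2 change of -1.27 ± 0.22 (SE, adjusted p = 1.81e-07). JARID2 at this window was 97.5 and 61.8 CPM in NPC, against 224 and 183 CPM in ESC, and fell by 1.33 (adjusted p = 3.47e-05). H3K27me3 was 488 and 871 CPM in NPC, against 334 and 313 CPM in ESC, and did not pass (log2 1.38, adjusted p = 0.366). H3K4me3 was 65.9 and 62.8 CPM in NPC, against 46.5 and 41.4 CPM in ESC, and rose by 0.50 (adjusted p = 7.50e-07). MTF2 was 182 and 500.9 CPM in NPC, against 656 and 526 CPM in ESC, and did not pass (log2 -1.06, adjusted p = 0.645). H3K27me3 was above IgG in both cell types and H3K4me3 in neither.

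The largest SUZ12 fall among named pairs was at 4932441J04Rik/Pcdh7. The Pcdh7 window had 118 and 71.3 CPM in NPC, against 532 and 437 CPM in ESC (log2 -2.61 ± 0.24, adjusted p = 2.02e-24). Its JARID2 fell by 1.27 (adjusted p = 5.75e-05), with 85.3 and 91.3 CPM in NPC, against 189 and 226 CPM in ESC. H3K4me3 rose there, at 126 and 127 CPM in NPC, against 66.1 and 55.2 CPM in ESC (log2 1.02, adjusted p = 1.48e-30). H3K27me3 was 139 and 249 CPM in NPC, against 174 and 159 CPM in ESC, so the groups overlap (adjusted p = 0.571).

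Foxb1, a forkhead factor of the developing brain paired with B230323A14Rik, followed the same order of values. SUZ12 stood at 125 and 185 CPM in NPC, against 603 and 457 CPM in ESC (log2 -2.04, adjusted p = 5.65e-17), and H3K4me3 at 114 and 124 CPM in NPC, against 46.2 and 43.4 CPM in ESC (log2 1.39, adjusted p = 1.25e-51). At 2610316D01Rik/Pcdh10 SUZ12 fell by 1.96 and JARID2 by 1.67 (adjusted p = 2.77e-15 and 1.75e-07 at the Pcdh10 window). Foxl2os/Foxl2, whose coding gene is a factor of the ovary, had 122 and 142.6 CPM of SUZ12 in NPC, against 435 and 431 CPM in ESC (log2 -1.96, adjusted p = 1.01e-15). In contrast to Pcdh7 and Foxb1, H3K4me3 at Foxl2 fell, by 0.31 (adjusted p = 0.00126). It was above IgG at Foxl2 in neither cell type. Factors from background windows move the median H3K4me3 change of all windows from -0.02 to 0.27, a shift close in size to this fall.

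At Gm16675/Irf2 all of the PRC2 signals except JARID2 fell. Irf2 is a transcription factor of the interferon response. SUZ12 was 53.7 and 40.1 CPM in NPC, against 156 and 161 CPM in ESC (log2 -1.999, adjusted p = 3.22e-13). MTF2 was 50.1 and 56.1 CPM in NPC, against 204 and 142 CPM in ESC (log2 -1.996, adjusted p = 0.00432), and H3K27me3 was 34.4 and 26.1 CPM in NPC, against 119 and 88.0 CPM in ESC (log2 -1.60, adjusted p = 0.000382). H3K4me3 rose by 0.80 (adjusted p = 1.67e-19), and the pair, which had both marks in ESC, had H3K4me3 alone in NPC. JARID2 had a log2 change of -0.36 and did not pass (adjusted p = 0.78). MTF2 also fell at the cadherin gene Cdh8 (log2 -1.95, adjusted p = 0.00273) and at Vstm2b (log2 -2.09, adjusted p = 0.00422).

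2610035F20Rik/Zic2 went against these pairs. Zic2 is a zinc finger factor of the early nervous system, on chr14 with its window at 122472884 to 122477883 in mm10. SUZ12 at Zic2 was 232 and 212 CPM in NPC, against 61.8 and 53.7 CPM in ESC (log2 1.67 ± 0.23, adjusted p = 1.89e-11). JARID2 was 112 and 70.7 CPM in NPC, against 30.2 and 28.6 CPM in ESC (log2 1.65, adjusted p = 0.000215). H3K27me3 was 313 and 485 CPM in NPC, against 12.4 and 20.1 CPM in ESC (log2 4.93 ± 1.02, adjusted p = 1.89e-05). H3K4me3 was lower, 69.2 and 83.3 CPM in NPC, against 188 and 190 CPM in ESC (log2 -1.29, adjusted p = 1.15e-51), and stayed above IgG in both. MTF2 did not pass (log2 1.11, adjusted p = 0.187). The pair rose for SUZ12, JARID2 and H3K27me3 in both windows, and it was the only pair that rose for JARID2 in both. At Zic2 SUZ12, JARID2 and MTF2 were called above IgG in neither cell type.

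SUZ12 also rose at 2810004N23Rik/Gnpat, Psenen/U2af1l4, Hspd1/Hspe1 and Rad51c/Tex14, at levels near IgG; DESeq2 called only 2 of the divergent windows a SUZ12 rise. Hspd1 and Hspe1 encode the mitochondrial chaperonin HSP60 and its partner HSP10. The Hspe1 window had 62.3 and 51.3 CPM of SUZ12 in NPC, against 19.8 and 33.3 CPM in ESC (log2 0.92 ± 0.32, adjusted p = 0.0295), and H3K4me3 fell there by 0.64 (adjusted p = 2.25e-14), with 144 and 154 CPM in NPC, against 222 and 239 CPM in ESC. Rad51c, a recombination repair gene, had 27.6 and 32.6 CPM of H3K4me3 in NPC, against 90.8 and 89.5 CPM in ESC (log2 -1.55, adjusted p = 1.59e-56), and it lost its call above IgG. Its partner Tex14 is a germ cell gene.

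**Figure D5:**
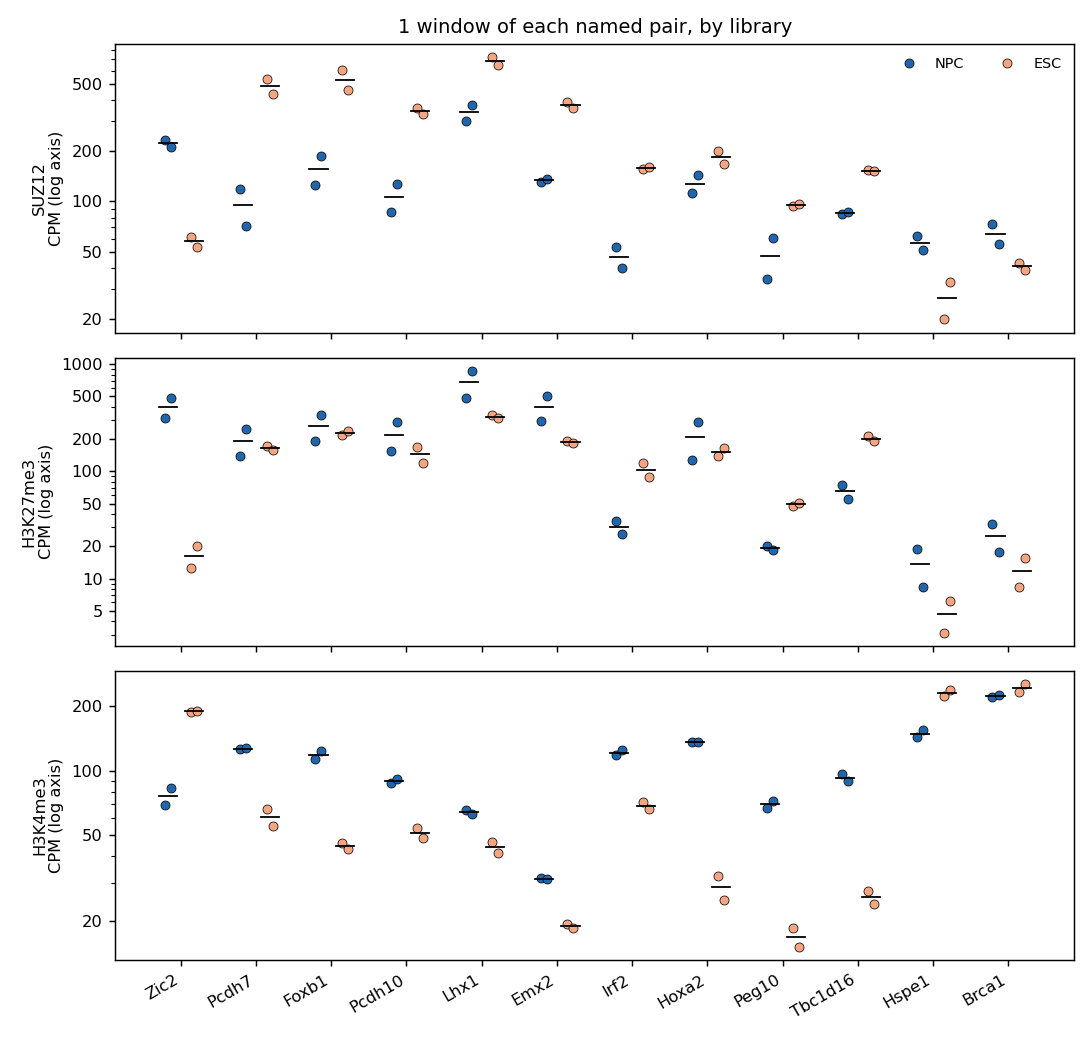
CPM of SUZ12, H3K27me3 and H3K4me3 (log axes) at 1 window of each of 12 named pairs, with the 2 NPC libraries (blue) left of the 2 ESC libraries (orange) and bars at their means. Zic2 is higher in NPC than in ESC for SUZ12 and H3K27me3 and lower for H3K4me3, and Pcdh7, Foxb1 and Pcdh10 are lower in NPC for SUZ12 and higher for H3K4me3.

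For H3K27me3, the pairs named for a rise beside Zic2 were Tle1/C630043F03Rik, 5930412G12Rik/Fzd10, Ccdc92/Zfp664 and Nup62cl/Pih1h3b. Tle1 is a co-repressor of the Groucho family and Fzd10 a Wnt receptor. The Fzd10 window had 79.8 and 117 CPM in NPC, against 11.4 and 16.99 CPM in ESC (log2 3.10 ± 0.46, adjusted p = 1.31e-09), and Tle1 had 41.0 and 45.9 CPM in NPC, against 1.04 and 12.4 CPM in ESC (log2 3.17, adjusted p = 1.37e-12). Both kept H3K4me3 above IgG in both cell types. The 1.04 CPM of Tle1 in ESC lies under the 3.11 CPM that 3 counts make in that library, so the size of its rise is uncertain. Falls were named at Pygl/F730035M05Rik, with Pygl the liver glycogen phosphorylase, where 24.4 and 22.9 CPM in NPC stood against 117 and 128 CPM in ESC (log2 -2.14, adjusted p = 9.27e-06), and at Hmgb4/Hmgb4os, C86187/Gm9999, 1110017D15Rik/Fam219aos and Gm13986/Thbs1.

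The largest H3K4me3 rise of a named pair was at Hoxa2/Hoxaas2. Hoxa2 patterns the hindbrain. Its window had 135 and 137 CPM in NPC, against 32.4 and 25.1 CPM in ESC (log2 2.18 ± 0.10, adjusted p = 1.92e-109), and H3K27me3 there was above IgG in both cell types and did not pass (adjusted p = 0.384). Sgce/Peg10 is an imprinted pair, expressed from the paternal copy. The Peg10 window had 66.8 and 72.6 CPM of H3K4me3 in NPC, against 18.5 and 15.2 CPM in ESC (log2 2.02 ± 0.12, adjusted p = 3.75e-65), and the reads were not split by parental copy. At this window SUZ12 fell by 1.27, MTF2 by 1.65 and H3K27me3 by 1.13 (adjusted p = 1.37e-05, 0.000956 and 0.0011). Msi2, an RNA-binding protein of neural progenitors, rose with 178 and 200 CPM in NPC, against 60.6 and 59.1 CPM in ESC (log2 1.65, adjusted p = 1.01e-76). Tmtc2/Gm15663 rose by 1.58 at Tmtc2 (adjusted p = 1.39e-66).

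Falls of H3K4me3 were named at Rad51c/Tex14, 2610035F20Rik/Zic2, Jup/Gm12348, Ostf1/Nmrk1 and Fn1/Apol7d. Jup encodes plakoglobin of cell junctions, and its window had 52.4 and 47.4 CPM in NPC, against 103 and 93.1 CPM in ESC (log2 -1.03, adjusted p = 2.82e-29). Fn1, the matrix protein fibronectin, had 85.2 and 85.9 CPM in NPC, against 154 and 170 CPM in ESC (log2 -0.93, adjusted p = 2.21e-27).

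Of 20 well-known neighbour pairs listed, the rule found 8: Emx2os/Emx2, Wt1os/Wt1, Col4a4/Col4a3, Hspd1/Hspe1, Atm/Npat, Mcm4/Prkdc, Brca1/Nbr1 and Gart/Son. Emx2, a homeobox gene of the forebrain, and Wt1, a factor of kidney and gonad, both held SUZ12 in ESC. At Emx2 it fell to 131 and 136 CPM in NPC, against 388 and 357 CPM in ESC (log2 -1.74, adjusted p = 8.19e-13), and H3K4me3 rose by 0.70 (adjusted p = 3.80e-06). At Wt1 it was 170 and 200.6 CPM in NPC, against 353 and 352 CPM in ESC (log2 -1.18, adjusted p = 1.02e-06), but H3K4me3 fell by 1.19 (adjusted p = 4.40e-16). Their H3K27me3 stayed above IgG in both cell types, with 298 and 504 CPM at Emx2 in NPC, against 191 and 182 CPM in ESC, a difference that did not pass (adjusted p = 0.227). H3K4me3 at Emx2 and Wt1 was above IgG in neither cell type.

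The pairs Atm/Npat, Mcm4/Prkdc and Brca1/Nbr1, of repair and replication genes, held H3K4me3 in both cell types and no SUZ12 above IgG. Brca1 had 220 and 226 CPM of H3K4me3 in NPC, against 233 and 253 CPM in ESC, which did not pass (log2 -0.14, adjusted p = 0.134). Atm, the kinase of the double-strand break response, had 129 and 147 CPM in NPC, against 120 and 121 CPM in ESC (log2 0.20, adjusted p = 0.0258). Col4a3, a collagen of basement membranes, differed from these: H3K27me3 was above IgG in both cell types and H3K4me3 in neither, with 11.6 and 12.7 CPM in NPC, against 21.2 and 21.5 CPM in ESC (log2 -0.80, adjusted p = 3.62e-05).

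Developmental transcription factors were divergent in 22 of the 296 cases in the table (7.43%), against 9.24% of all windows, and their SUZ12 was lower in NPC. It fell at 18 of the 22 and rose at 1, Zic2, with a median log2 change of -1.20, and the lone members of the list gave 156 falls and 5 rises of 216 tested with a median of -1.11. The 22 include the noncoding Foxd2os and Foxl2os, whose windows nearly repeat those of their partners. The falls numbered 17 or 18 under each of the 3 other scalings. Besides those described, they took in Foxd2 (log2 -1.32), Hoxd1 (log2 -1.39), Irx2 (log2 -1.42), Hand2 (log2 -1.21), Lmx1b (log2 -1.10), Lhx8 (log2 -1.22) and Sox8 (log2 -0.73). Foxj3 and Foxm1 had positive values that did not pass (log2 0.16 and 0.55). H3K27me3 was above IgG at 20 of the 22 in NPC and at 17 in ESC. H3K4me3 went both ways, with 8 rises and 12 falls, or 5 and 3 with factors from background windows. It was above IgG at 8 of the 22 in NPC and at 6 in ESC.

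Genes whose symbol ends in "os", a list that also takes in coding genes such as Uros, were divergent in 34 of 177 cases (19.2%). SUZ12 fell at 7 of 33 tested and rose at 1, beside 13.1% and 2.97% of all windows tested, and H3K4me3 rose at 10 and fell at 9, beside 26.7% and 29.2% of all windows tested. Foxl2os and Wt1os repeat the values of Foxl2 and Wt1, since their windows are nearly the same.

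The housekeeping lists were rich in divergent pairs beside the 9.24% of all windows. Replication-dependent histone genes were divergent in 28 of 69 cases (40.6%), the mitochondrial ribosome in 27 of 77 (35.1%), tRNA synthetases in 11 of 34 (32.4%), DNA replication and repair in 45 of 150 (30.0%), the respiratory chain and ATP synthase in 28 of 105 (26.7%) and mitochondrial import and chaperones in 7 of 32 (21.9%). Lower shares were found for the proteasome (9 of 50, 18%), ribosomal proteins (11 of 84, 13.1%), cell cycle genes (15 of 118, 12.7%) and zinc finger Zfp genes (23 of 375, 6.13%). Type IV collagens had 2 of 6, Col4a3 and Col4a4. None of the 1116 olfactory receptors was divergent.

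At the histone pairs, mostly an H2A and an H2B gene such as Hist1h2bl/Hist1h2ai, H3K4me3 rose at 14 and fell at 2 of 28 windows (median log2 0.32), or at 7 and 2 with factors from background windows. The falls were Hist1h2aa and Hist1h2ba, which make histones of the testis. Of all windows tested 26.7% rose and 29.2% fell, and of 7 lone histone windows 4 rose and 2 fell. The windows of a pair nearly repeat each other, so a locus can count more than once. Near-identical histone genes can share or lose reads in alignment, so single values are uncertain. SUZ12 rose at 3 and fell at 0 of 23 divergent histone windows tested, and lone ones gave 1 rise and 1 fall of 7. Of all windows tested 2.97% rose and 13.1% fell. Among the 3 was Hist1h2ai, which had 64.4 and 37.9 CPM in NPC, against 13.99 and 16.7 CPM in ESC (log2 1.51, adjusted p = 0.000604).

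H3K4me3 at ribosomal protein genes fell at 11 of 11 divergent windows, with a median of -0.55, and at 38 of 40 lone ones, with a median of -0.54. Rps29, of the small subunit, had 83.9 and 78.9 CPM in NPC, against 132 and 139 CPM in ESC (log2 -0.76, adjusted p = 1.18e-18). These falls depend on the scale: with factors from background windows none of the 11 passed and 2 of them had a positive value. In other housekeeping lists there were 9 rises and 11 falls of 45 for DNA replication and repair and 4 and 7 of 27 for the mitochondrial ribosome. The respiratory chain had 5 and 7 of 28 and tRNA synthetases 0 and 4 of 11. Of all windows tested for H3K4me3, 26.7% rose and 29.2% fell.

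H3K27me3 rose without a fall in most of these lists: at 26 of 37 windows tested for DNA replication and repair, 17 of 24 for the mitochondrial ribosome, 14 of 24 for the respiratory chain, 8 of 10 for tRNA synthetases and 7 of 8 for ribosomal proteins. Of all divergent windows tested 44.0% rose, and of all windows tested 22.9%. None of the windows of these 5 lists was above IgG for H3K27me3 in either cell type. Lone members gave 35 rises and 7 falls of 74 for DNA replication and repair and 23 and 0 of 33 for ribosomal proteins. With library totals as the scale the rises were 3, 3, 1, 0 and 1 in the order given, while the medians kept their sign.

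Single members of these lists show both directions. Uqcr10, of respiratory complex III, had 187 and 180.5 CPM of H3K4me3 in NPC, against 300.3 and 313 CPM in ESC (log2 -0.76, adjusted p = 1.74e-20), and Vars, the valine tRNA synthetase, fell by 0.50 (adjusted p = 8.65e-09). Mrpl41, of the mitochondrial ribosome, rose by 0.39 (adjusted p = 8.04e-06). Psmb9, an immunoproteasome subunit paired with the peptide transporter Tap1, had 57.3 and 57.3 CPM of H3K4me3 in NPC, against 29.7 and 32.0 CPM in ESC (log2 0.89, adjusted p = 8.73e-16), and its SUZ12 fell by 1.19 (adjusted p = 3.1e-05). SUZ12 also fell at Ccna1, a meiotic cyclin (log2 -1.25, adjusted p = 0.000117), at Zfp277 (log2 -1.28, adjusted p = 3.1e-05) and at the repair gene Xrcc3 (log2 -0.98, adjusted p = 0.0014). It rose at Atp5c1 of the ATP synthase (log2 0.92, adjusted p = 0.0334). H3K4me3 rose at Hist3h2a (log2 0.95, adjusted p = 8.1e-30) and fell at Ino80dos (log2 -0.78, adjusted p = 6.82e-21), Zfp553 (log2 -0.84, adjusted p = 2.82e-24) and Cdc14b (log2 -0.87, adjusted p = 6.3e-10). For MTF2 the named rises were at Qtrtd1/Ccdc191, Pdap1/Bud31 and Gm15760/Abcf3, with log2 changes of 1.11, 1.07 and 0.99 at Qtrtd1, Bud31 and Abcf3, and none of these windows was above IgG. DESeq2 called no MTF2 rise at a divergent window.

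Distance within the pair changed little for H3K4me3, whose windows above IgG in NPC were 85.0% up to 100 bp, 85.1% above that and up to 200 bp, 83.6% up to 300 bp, 87.6% up to 500 bp and 78.2% up to 1000 bp. In ESC the same classes had 76.9%, 81.3%, 82.5%, 79.0% and 76.0%. SUZ12 above IgG in ESC stood at 2.36%, 5.19%, 9.94%, 5.17% and 9.29% in that order, and H3K27me3 in NPC at 5.04%, 6.92%, 11.1%, 8.05% and 15.1%. These shares do not follow a single order. Just inside the limit, the 20 pairs in the last 100 bp had H3K4me3 above IgG at 85% of windows in NPC and 75% in ESC. Just outside it, the 26 pairs in the next 100 bp had 67.3% and 63.5%.

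For H3K4me3 and H3K27me3 above IgG, the kind of partner went with larger differences than distance. For MTF2 above IgG in ESC the spans were alike, 5.67% to 15.2% of windows over the distance classes and 6.90% to 15.1% over the kinds. Pairs of coding genes had H3K4me3 above IgG at 90.5% of windows in NPC and 85.7% in ESC, pairs of a coding and a noncoding gene at 74.1% and 66.6%, and noncoding pairs at 53.4% and 60.3%. H3K27me3 in NPC and ESC was above IgG at 3.38% and 5.49% of windows of coding pairs and at 17.7% and 20.1% of those of a coding and a noncoding gene. SUZ12 fell at 9.60% of tested windows of coding pairs and 21.0% of those of a coding and a noncoding gene. In noncoding pairs it fell at 4 of 58 (6.90%). By distance class, from the nearest to the farthest, SUZ12 fell at 8.18%, 11.3%, 16.9%, 16.4% and 17.7% of tested windows. All 18 windows with a JARID2 change belonged to pairs with a noncoding partner.

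The windows were too alike for a difference between strands to show in most pairs. The median absolute log2 ratio of H3K4me3 between partners was at most 0.02 in every distance class and library. Among the 135 pairs at least 500 bp apart with at least 100 counts in every window and library, the plus-strand window was highest relative to its partner at Ndufaf3/Mir191, Zbtb37/Gas5 and Atf5/Gm21948. Gas5 is a noncoding host of small nucleolar RNAs, and its window had 524 and 1637 counts in NPC and 1470 and 942 in ESC, against 454 and 1339 in NPC and 1117 and 702 in ESC for the Zbtb37 window. The minus-strand window was higher at Srsf2/Mfsd11, Qk/Cahm and Zcchc3/6820408C15Rik. Srsf2, a splicing factor, had a mean log2 ratio of Mfsd11 over Srsf2 windows of -0.27, with the same sign in all 4 libraries. These are differences between the non-shared ends of the windows and not between the promoters themselves. Of 35 pairs of a coding and a noncoding gene at 500 to 1000 bp, the coding window was higher in all 4 libraries in 12 and the noncoding window in 4.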

How the data were processed

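The authors deposited raw read counts for each 5000 bp window, centred on 1 TSS per gene and not normalized. Per the submitters' processing notes, the build was mm10, Bowtie2 2.3.4.3 and Picard 2.19 were used, with settings not stated there. The added Drosophila spike-in does not enter these values, so shifts shared by all windows were not measured. Pairs were found from the TSS and strand columns.

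Changes of NPC over ESC were tested per antibody on 4 libraries by the quasi-likelihood test of edgeR 4.0.16 in R 4.3.3, with TMM and filterByExpr at a minimum count of 10, over all windows, with Benjamini-Hochberg adjustment at 0.05. The filter kept 2021 (H3K27me3) to 2232 (H3K4me3) of the 2261 divergent windows. Enrichment over IgG came from 1 fit of the 22 libraries. Log2 ratios to IgG used a prior count of 2. The windows named follow a written rule: landmark pairs, the 5 largest changes per direction and antibody (3 for JARID2 and MTF2) among pairs called in both windows with non-overlapping libraries and at least median signal (without pairs of 2 predicted genes or with an olfactory receptor or Mir gene), the strongest imbalance, the smallest p per gene list for H3K4me3 and SUZ12, and the 5 highest SUZ12 levels. The members and lists were chosen with earlier results of these data known. Motifs were searched in RefSeq promoters of GRCm38.p6. Alternatives were DESeq2 1.42.0, other scalings, filters, IgG settings, distances and each library left out. The test was tested on simulated data of the same depths. The labels number the replicates and do not say whether cultures were separate, so p-values measure only the spread between these samples. Same-numbered replicates did not deviate together (correlations -0.22 to 0.01), and were not paired. Some items are not reported here.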

Additional observations from a re-analysis of the deposited data

How the results depend on the processing

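Calls of change at divergent windows moved with the tool, the scaling, the filter and single libraries. With DESeq2 there were 170 (SUZ12), 10 (JARID2), 89 (MTF2), 148 (H3K27me3) and 802 (H3K4me3) calls, against 367, 18, 202, 1032 and 1249 by edgeR. At a minimum count of 30, SUZ12 had 171, MTF2 130 and H3K27me3 224, with fewer windows tested. H3K27me3 had 303 with library totals and H3K4me3 360 with background factors. Leaving out a library gave 228 to 308 (SUZ12), 6 to 15 (JARID2), 2 to 242 (MTF2), 278 to 766 (H3K27me3) and 674 to 1357 (H3K4me3). Replicate numbers share only a label: with a replicate block, MTF2 had 40 calls, SUZ12 360, JARID2 18, H3K27me3 755 and H3K4me3 1260. A crossed block, added after seeing the data, gave 374 for MTF2.

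Above IgG, a log2 fold of at least 2 left 77 (SUZ12), 109 (MTF2) and 93 (H3K27me3) divergent windows in ESC. H3K4me3 above IgG at divergent windows in NPC numbered 1150 at that fold and 1248 with library totals, and H3K4me3 above IgG at divergent windows in ESC numbered 1084 at that fold. Pairs with both marks numbered 7 in NPC and 1 in ESC at that fold, 9 and 1 with library totals, and 29 in ESC when 1 window sufficed. Library totals gave 26 in NPC and 83 in ESC (SUZ12), 4 in ESC (JARID2), 30 and 129 (MTF2) and 128 in ESC (H3K27me3). IgG of both cell types together gave 2 and 245 (SUZ12) and 3 and 355 (MTF2). Leaving out a library gave 50 to 110 windows for SUZ12 in ESC (50 without ESC replicate 1), 0 to 7 for MTF2 in NPC and 64 to 238 for MTF2 in ESC (64 without ESC replicate 1).

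Divergent minus lone medians without IgG were 0.18 in NPC and 0.25 in ESC (SUZ12), 0.15 and 0.041 (JARID2), 0.24 in NPC (MTF2) and -0.029 in NPC (H3K27me3). A prior count of 5 gave 0.20 for SUZ12 and -0.85 for H3K27me3 in ESC, and a maximum distance of 500 bp gave 0.20 for SUZ12 in ESC. H3K4me3 at Prkdc, Gart and Son turned to 0.11, 0.055 and 0.082 with background factors. The cause of these shifts was not tested. Of the other alternatives for named windows, 2201 kept direction and side of the threshold, 214 lost the call and 42 gained it. At 3 counts the floor was 0.356 to 10.05 CPM by library, so low H3K27me3 windows are the least certain.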
